A study of Mus musculus with 10 samples.

Results

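MHC class I molecules show peptides from inside the cell to CD8+ T cells, and the genes that build this display were followed in 10 subcutaneous (s.c.) Panc02 tumors. The set was fixed by symbol and held 10 genes: the heavy chains H2-K1 and H2-D1, the light chain B2m, the peptide transporter and its partner (Tap1, Tap2, Tapbp), the inducible proteasome subunits Psmb8, Psmb9 and Psmb10, and the coactivator Nlrc5. Of these, 9 were matched by Ensembl identifier to the 37417 genes of the count table, and all 9 were among the 15299 genes that passed a filter on low counts. The identifier of Psmb9 matched no entry, and Psmb9 was not analysed here.

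Panc02 is a mouse pancreatic cancer cell line, and it was grown here in wild type C57BL/6J mice aged 12 weeks. In both groups the cancer cells had received an inducible Cas9 nuclease and had been exposed to doxycycline before injection. They differed in the guide, which was nontargeting in the 5 sgNT tumors and directed against Cda, the gene of cytidine deaminase, in the 5 sgCda tumors. Whole tumors were taken at day 16, so host cells with intact Cda were sequenced together with the edited cancer cells, and the labels list no drug treatment. A lower count can therefore come from fewer cells that use a gene or from less RNA per cell, and these cannot be told apart.

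In this pathway the proteasome cuts proteins into peptides, and its catalytic subunits can be exchanged for the inducible PSMB8, PSMB9 and PSMB10, which form the immunoproteasome. TAP1 and TAP2 together carry peptides into the endoplasmic reticulum, and tapasin, the product of Tapbp, holds TAP next to a waiting heavy chain and B2M until a peptide fits. Interferon-gamma raises most of these genes, in part through the factor IRF1, and NLRC5 acts with the RFX, CREB and NF-Y factors on a compact element of class I promoters.

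Promoter sequence was available for 8 of the 10 members and came from RefSeq (GRCm38.p6), as windows of 300 bases from 250 before to 50 after the start. Tap2 and Nlrc5 were not in that set. The stretches printed here carry the letters on which the comparison of promoters turns. In the first 3, the capitals mark TGACG and ATTGG, the cores of the CREB and NF-Y sites, and upstream of them the κB palindrome (GGGGATT followed directly by CCCC) in both heavy chains and a match to the interferon-response pattern (GAAA, any 2 bases, GAAA) in B2m. Each of these runs from 80 bases before TGACG to 5 bases after ATTGG. They lie at chr17:34000354-34000468 on the minus strand (H2-K1), chr17:35262913-35263027 on the plus strand (H2-D1) and chr2:122147529-122147643 on the plus strand (B2m). The fourth is the 225 bases between the divergent starts of Tap1 and Psmb9, at chr17:34187331-34187555 on the strand of Tap1, with TGACG and CCAAT (the reverse complement of ATTGG) in capitals.
H2-K1: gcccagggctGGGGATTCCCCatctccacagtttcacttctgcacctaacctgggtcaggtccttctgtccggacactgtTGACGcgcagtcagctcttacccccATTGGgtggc
H2-D1: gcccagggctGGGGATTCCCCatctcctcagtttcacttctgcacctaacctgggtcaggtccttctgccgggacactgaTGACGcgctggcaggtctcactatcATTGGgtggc
B2m: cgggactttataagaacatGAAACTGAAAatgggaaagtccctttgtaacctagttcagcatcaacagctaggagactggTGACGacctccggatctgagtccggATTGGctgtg
Tap1 and Psmb9: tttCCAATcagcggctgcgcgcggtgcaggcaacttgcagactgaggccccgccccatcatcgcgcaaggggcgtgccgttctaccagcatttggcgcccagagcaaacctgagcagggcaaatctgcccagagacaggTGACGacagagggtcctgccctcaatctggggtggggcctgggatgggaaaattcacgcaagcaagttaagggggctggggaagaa

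The stretches of H2-K1 and H2-D1 were identical at 104 of 115 positions (90.4%), whereas B2m matched H2-K1 at 47 positions (40.9%) and H2-D1 at 46 (40.0%). Despite this difference, TGACG and ATTGG were 20 bases apart in all 3. TGACG followed by ATTGG at a distance of 15 to 25 bases was present in 3 of the 8 member promoters and in 0.435% of 32851 mouse promoter windows. The letters alone were common, with TGACG in 20.8% and ATTGG in 37.4% of windows. The κB palindrome was found in 0.0304% of windows, and the interferon-response pattern in 3.44%. The Tapbp window held ATTGG at 2 places, and the Psmb10 window held none of these motifs. Each window surrounds the RefSeq start nearest the annotated gene start, and these starts can differ. For Tapbp the RefSeq start was 33919478, inside the annotated gene, which begins at 33915899. The same held for H2-D1 (35263094 against 35262730) and Psmb8 (34198195 against 34197721). These windows therefore need not cover the start that the tumors used. Every motif was searched by itself on both strands, overlapping matches were kept, and a match describes the letters only. Only exact matches were counted and marked. The heavy chain windows held no exact match to the interferon-response pattern, which does not show that they lack such an element. Likewise, the B2m window held no exact match to the κB palindrome, which does not show that it lacks a κB element.

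Libraries held between 28051907 (sgCda 4) and 39484964 (sgNT 5) assigned counts, and the number after the group name is the replicate number of the tumor. The 9 measured members took 1.05% to 1.39% of assigned counts, so the pathway was deeply covered in every tumor. The lowest count of any member in any tumor was 4077, for Tap2. The library of sgCda 4 stood apart, with 18.4% of uniquely aligned reads outside annotated genes (10.3% to 14.9% in the others) and 5.82% of assigned counts from mitochondrial genes (3.47% to 3.81% in the others). Skeletal muscle markers summed to between 1.30 and 1796 CPM (counts relative to the scaled library size), with the highest sum in sgCda 3. Of the epithelial markers, Krt8 and Krt18 were plentiful (353 to 645 CPM and 157 to 325 CPM), while Epcam stayed between 0.911 and 3.43 CPM.

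Levels between genes were compared as CPM per kilobase of the longest coding transcript, over the 10 tumors (mean ± SD). B2m was the most abundant member at 4244 ± 523, followed by H2-K1 at 2079 ± 222 and H2-D1 at 1397 ± 147. At these lengths the ranges of the 3 did not overlap. The gap between the heavy chains depends on the length used. Their coding transcripts measured 1619 (H2-K1) and 2102 bases (H2-D1), but all exons together 2938 and 2579 bases. In CPM alone their ranges overlapped, at 2762 to 4028 and 2398 to 3415. Psmb8 (293 ± 35.9) and Tapbp (246 ± 27.5) came next. Their ranges overlapped, and their order also depends on the length (3381 and 3628 bases over all exons). Psmb10 (175 ± 24.1) and Tap1 (160 ± 19.0) also overlapped. Tap2 reached 44.0 ± 5.19, below its partner Tap1 in every tumor, and Nlrc5 was lowest at 26.0 ± 5.15, with a range that overlapped that of Tap2. Some letters are shared with other genes, which lowers counts because reads with several alignments were left out by the authors' counting. Of all 50-base stretches of the transcript, 14.3% in H2-D1 and 8.79% in H2-K1 also occurred in another gene, chiefly other class I genes, against 0% in B2m, Psmb8, Psmb10 and Nlrc5, 0.861% in Tap1, 0.737% in Tap2 and 2.0% in Tapbp.

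The targeted gene was examined before the pathway. Cda was measured at 10.1, 11.7, 12.8, 14.7 and 11.1 CPM in sgNT 1 to 5 and at 8.34, 8.43, 12.1, 7.47 and 12.5 CPM in sgCda 1 to 5. The groups overlapped, with sgCda 3 and sgCda 5 inside the sgNT range. The log2 fold change of sgCda against sgNT was -0.30 (SE 0.17, edgeR Benjamini-Hochberg adjusted p = 0.9996). A guide alters the DNA and need not lower the transcript, and host cells carry an intact gene, so these counts do not check the editing.

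To ask whether targeting Cda in the cancer cells was accompanied by another level of class I presentation in the tumor, sgCda and sgNT tumors were compared gene by gene. No member passed the test. At an edgeR adjusted p under 0.05, 0 of 9 members were called, as were 0 of all 15299 genes tested (0%). At an unadjusted p under 0.05, 0 of 9 members were called against 382 genes in all (2.5%), with 1.54% of all genes called higher and 0.954% called lower in sgCda tumors. In 0 of 9 members did the groups not overlap, against 0.601% of all genes. The log2 fold change was below 0 for 7 of 9 members and for 47.1% of all genes. Its median was -0.096 over the members and 0.0078 over all genes, and the median size without sign was 0.096 over the members and 0.078 over all genes. DESeq2 (433 genes) and limma-voom (317 genes) also called 0 members at an unadjusted p under 0.05, and neither called any gene after adjustment.

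The heavy chains bind the peptide and are what the T cell receptor recognises. H2-K1 (chr17:33996017-34000347 of GRCm38, GENCODE annotation M21, minus strand, 8 exons) was at 3422.5, 3467, 4028, 3232 and 3289 CPM in sgNT 1 to 5 and at 3346, 3830.1, 2762, 3122 and 3155 CPM in sgCda 1 to 5. H2-D1 (chr17:35262730-35267499, plus strand, 8 exons) was at 2889, 2904, 3383, 2993 and 3007 CPM in sgNT tumors and at 2915, 3415, 2398, 2573 and 2893 CPM in sgCda tumors. The groups overlapped for both genes, sgNT 3 and sgCda 2 were the highest tumors of their groups, and sgCda 3 was the lowest of all 10. The H2-K1 means were 3488 ± 317 and 3243 ± 390 CPM (SD, n = 5 each), a log2 fold change of -0.11 (SE 0.11, 95% confidence interval -0.35 to 0.14). The H2-D1 means were 3035 ± 201 and 2839 ± 389 CPM, a log2 fold change of -0.096 (SE 0.11, interval -0.34 to 0.15). For both the edgeR Benjamini-Hochberg adjusted p was 0.9996, and as a percentage the interval of H2-K1 ran from -21.5% to 10.1%.

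B2m, the invariant light chain without which the heavy chains do not reach the surface, lies on chromosome 2 (chr2:122147686-122153083, plus strand, 4 exons). It was at 3436, 3536, 4106, 3500.2 and 3454 CPM in sgNT 1 to 5 and at 3486, 4012, 3048, 4585 and 3330.3 CPM in sgCda 1 to 5. The sgCda tumors held both the highest and the lowest value, in sgCda 4 and sgCda 3, and so enclosed the sgNT range. The means were 3607 ± 282 and 3692 ± 610 CPM, with a log2 fold change of 0.034 (SE 0.13, interval -0.24 to 0.31, edgeR adjusted p = 0.9996). Without sgCda 4 the log2 fold change of B2m was -0.055.

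Loading of peptides depends on the transporter. Tap1 (chr17:34187553-34197225, plus strand, 11 exons) was at 457, 440, 593, 535 and 436 CPM in sgNT 1 to 5 and at 411, 504, 452, 450 and 433 CPM in sgCda 1 to 5. Tap2 (chr17:34203527-34216321, plus strand, 12 exons) was at 151, 145, 188, 157 and 136 CPM in sgNT tumors and at 137, 166, 141, 165 and 129 CPM in sgCda tumors. For both, sgNT 3 was the highest of all tumors and the groups overlapped. Below the sgNT mean lay 4 of 5 sgCda values for Tap1 and 3 of 5 for Tap2. Tapbp (chr17:33915899-33929292, plus strand, 8 exons) was at 703, 668, 880, 766 and 670 CPM in sgNT tumors and at 655, 755, 649, 767 and 611 CPM in sgCda tumors, and again sgNT 3 stood highest and the groups overlapped. The log2 fold changes were -0.13 for Tap1 (SE 0.099, interval -0.35 to 0.090), -0.078 for Tap2 (SE 0.10, interval -0.30 to 0.14) and -0.10 for Tapbp (SE 0.10, interval -0.32 to 0.12), each with an edgeR adjusted p of 0.9996. In the annotation Tap1 overlaps Psmb9 on the opposite strand by 212 bases and Tapbp overlaps Zbtb22 on its own strand by 149 bases, and the strand setting of the counting is not given in the sources used here.

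The immunoproteasome subunits replace the constitutive ones, PSMB8 in place of PSMB5 and PSMB10 in place of PSMB7. Psmb8 (chr17:34197721-34201454, plus strand, 6 exons) was at 469, 433, 577, 522 and 498 CPM in sgNT 1 to 5 and at 429, 544, 452, 384 and 460.3 CPM in sgCda 1 to 5. Psmb10 (chr8:105935735-105938444, minus strand, 8 exons) was at 203, 186, 283, 264 and 227 CPM in sgNT tumors and at 200.3, 252, 246, 232 and 203 CPM in sgCda tumors. Psmb8 was lowest in sgCda 4, the tumor with the most B2m, while Psmb10 was lowest in sgNT 2, and both were highest in sgNT 3. Psmb8 had the largest difference of any member, a log2 fold change of -0.14 (SE 0.10, interval -0.37 to 0.090, edgeR adjusted p = 0.9996), with 4 of 5 sgCda tumors below the sgNT mean. For Psmb10 it was -0.038 (SE 0.12, interval -0.30 to 0.23, same adjusted p).

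Nlrc5 (chr8:94434356-94527272, plus strand, 53 exons), the class I coactivator, was at 219, 203, 207, 181 and 162 CPM in sgNT 1 to 5 and at 179, 185, 189, 292 and 152 CPM in sgCda 1 to 5. The value of sgCda 4 lay above the other 9 tumors, and sgCda 5 was lowest. The log2 fold change was 0.037 (SE 0.16, interval -0.31 to 0.39, edgeR adjusted p = 0.9996), and without sgCda 4 it was -0.14. Nlrc5 and B2m were thus the members with a positive difference, and both were highest in sgCda 4.

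**Figure D1:**
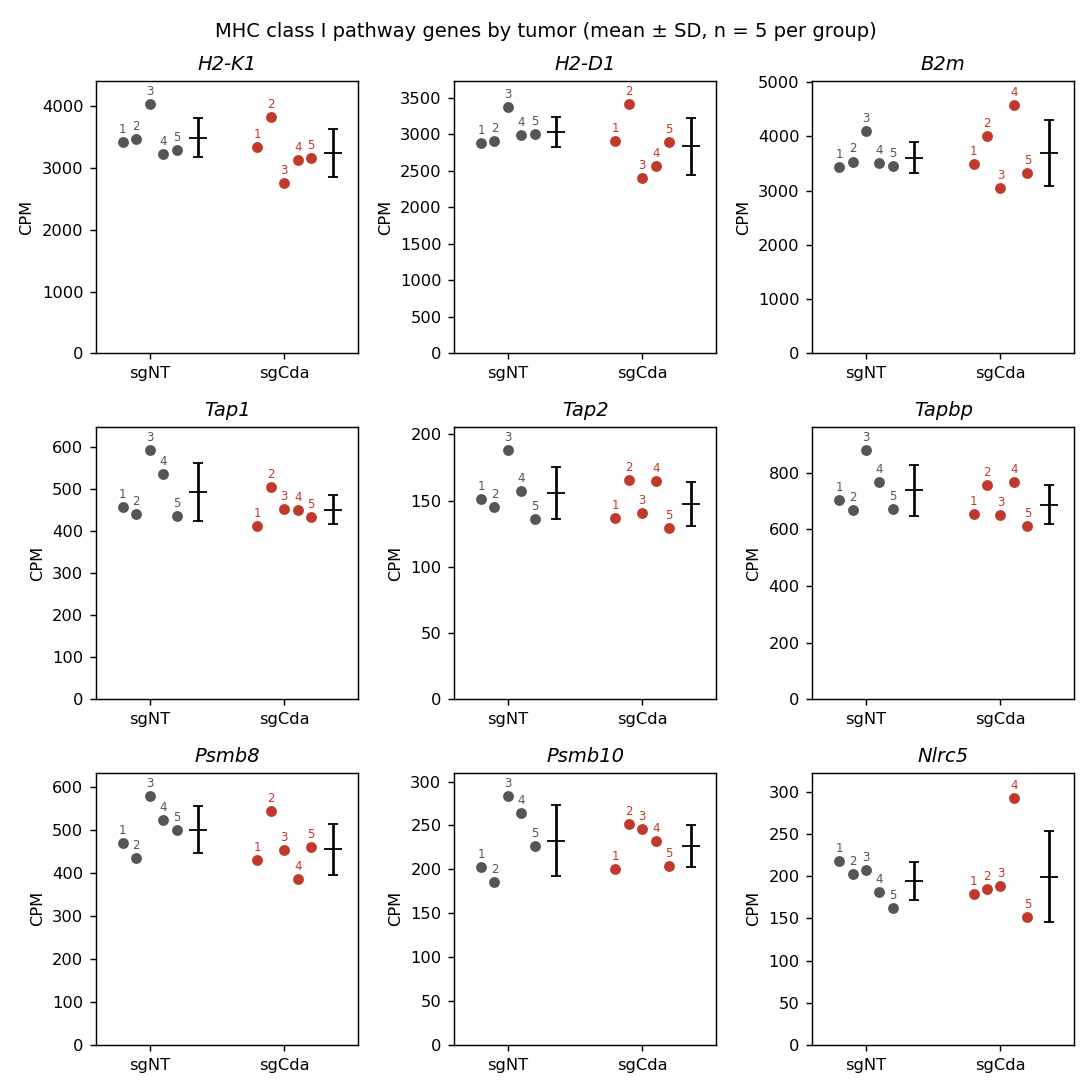
CPM of the 9 measured members in each tumor (vertical axes from 0), sgNT in grey and sgCda in red, each point numbered by replicate and bars giving the mean ± SD of 5 tumors. The groups overlap in every panel, and sgCda 4 stands highest for B2m (4585 CPM) and Nlrc5 (292 CPM).

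**Figure D2:**
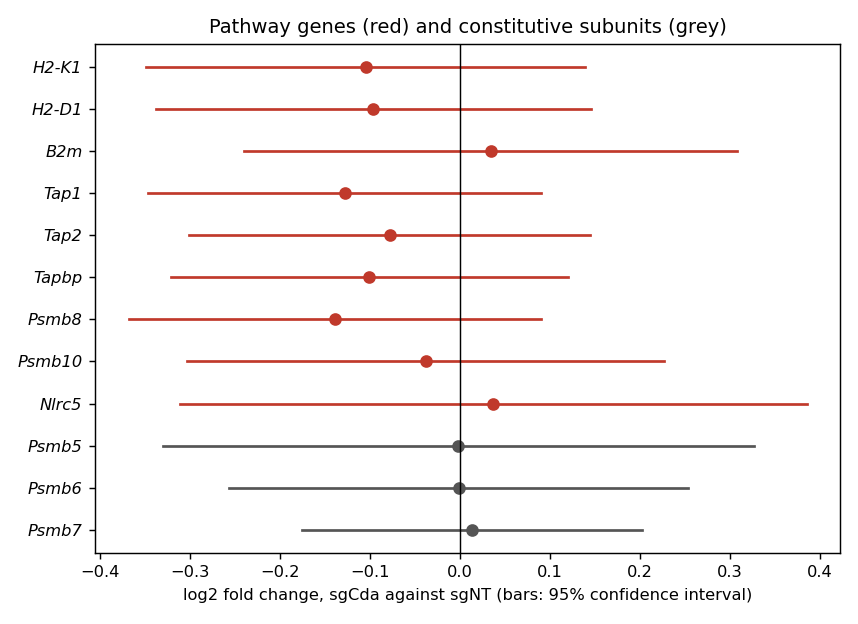
log2 fold change of sgCda against sgNT (horizontal axis) with its 95% confidence interval from edgeR for the 9 members in red and the constitutive subunits Psmb5, Psmb6 and Psmb7 in grey. Every interval includes 0, and the points run from -0.14 (Psmb8) to 0.037 (Nlrc5).

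Ratios of genes within a tumor do not depend on how libraries are scaled, and 6 such ratios were tested by exact permutation (two-sided, 252 assignments of tumors to groups), which cannot give a p below 0.00794. The exchange of proteasome subunits was followed as Psmb8/Psmb5, which was 5.83, 5.68, 5.64, 4.81 and 5.26 in sgNT 1 to 5 and 5.06, 5.53, 3.97, 5.97 and 4.59 in sgCda 1 to 5. Its log2 difference was -0.13 (exact permutation p = 0.318, Benjamini-Hochberg adjusted p = 0.730 over the 6 ratios). Much of the Psmb5 transcript is shared with other genes (57.1% of its 50-base stretches), so the level of this ratio is uncertain. Psmb10/Psmb7, whose denominator shares no stretch, was 1.20 to 1.65 in sgNT and 1.10 to 1.66 in sgCda tumors, a log2 difference of -0.034 (exact permutation p = 0.778, adjusted p = 0.913).

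Tap1 and Tap2 work as partners in a single transporter. Tap1/Tap2 ran from 3.02 to 3.40 in sgNT and from 2.73 to 3.36 in sgCda tumors, with a log2 difference of -0.044 (exact permutation p = 0.524, adjusted p = 0.786). H2-K1/H2-D1 ran from 1.08 to 1.19 and from 1.09 to 1.21, with a log2 difference of -0.0041 (exact permutation p = 0.913, adjusted p = 0.913). The heavy chains therefore kept nearly the same proportion to each other in all 10 tumors.

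The proportion of heavy chain to light chain was less even. H2-K1/B2m was 0.996, 0.980, 0.981, 0.923 and 0.952 in sgNT 1 to 5 and 0.960, 0.955, 0.906, 0.681 and 0.947 in sgCda 1 to 5. H2-D1/B2m ran from 0.821 to 0.871 in sgNT tumors and was 0.561 in sgCda 4 and 0.787 to 0.869 in the other sgCda tumors. The tumor sgCda 4 therefore had less of both heavy chains relative to B2m than any other tumor. The log2 differences were -0.13 for H2-K1/B2m (exact permutation p = 0.119, adjusted p = 0.714) and -0.13 for H2-D1/B2m (exact permutation p = 0.365, adjusted p = 0.730). Without sgCda 4 they were -0.037 and -0.012. The high share of unannotated and mitochondrial reads in this library moved with its ratios, and the part of RNA quality in them was not tested.

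**Figure D3:**
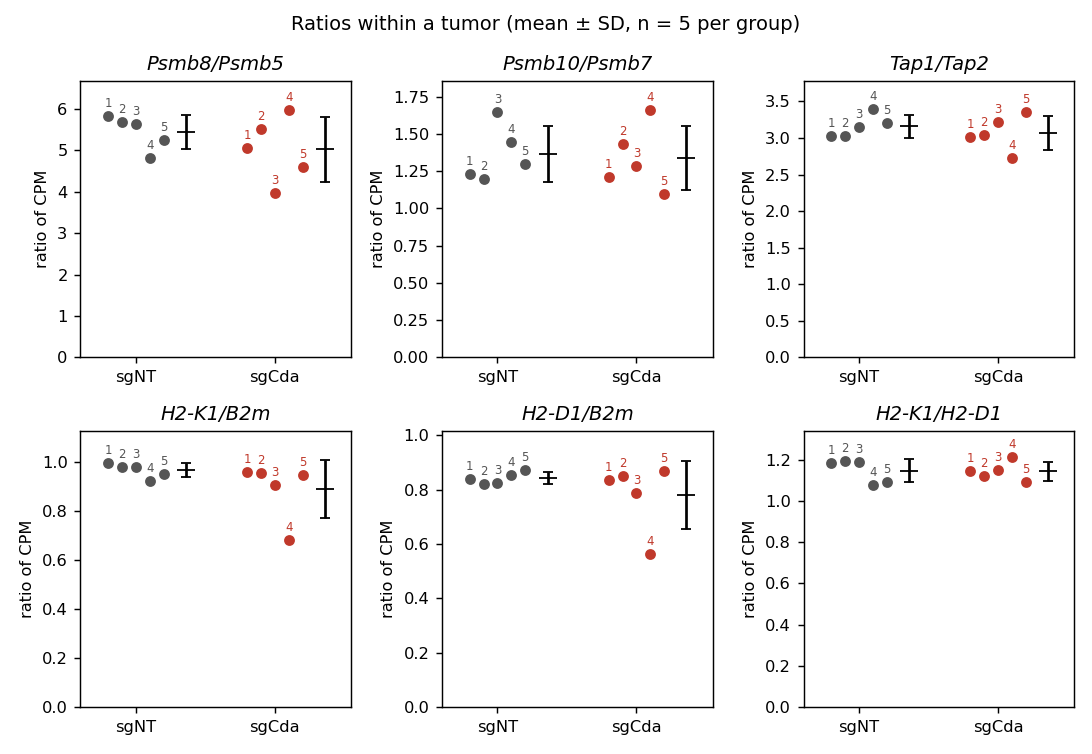
Ratio of CPM (vertical axes from 0) for 6 gene pairs in each tumor, sgNT in grey and sgCda in red, points numbered by replicate and bars giving mean ± SD of 5 tumors. In H2-K1/B2m and H2-D1/B2m the tumor sgCda 4 lies apart at 0.681 and 0.561, and the other 9 tumors lie within 0.906 to 0.996 and 0.787 to 0.871.

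The members varied among tumors of the same group. In sgNT 3 all 9 lay above their own 10-tumor mean, with a median deviation of 0.29 in log2 CPM, and 6 of 9 reached their highest value there. In sgCda 2, 8 of 9 lay above it. In sgCda 1 and sgCda 5, 0 of 9 did. In sgCda 3 the 3 cell surface chains H2-K1, H2-D1 and B2m were at their lowest of the 10 tumors, although the summed T and NK cell markers were highest there (708 CPM, against 206 to 462 CPM in the others). Psmb10 lay above its mean in this tumor. Over the 10 tumors the SD of log2 CPM was 0.15 for H2-K1 and H2-D1, 0.20 for Psmb10 and 0.26 for Nlrc5. Its median was 0.17 over the members and 0.14 over the 6661 genes with a mean log2 CPM of at least 5.

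**Figure D4:**
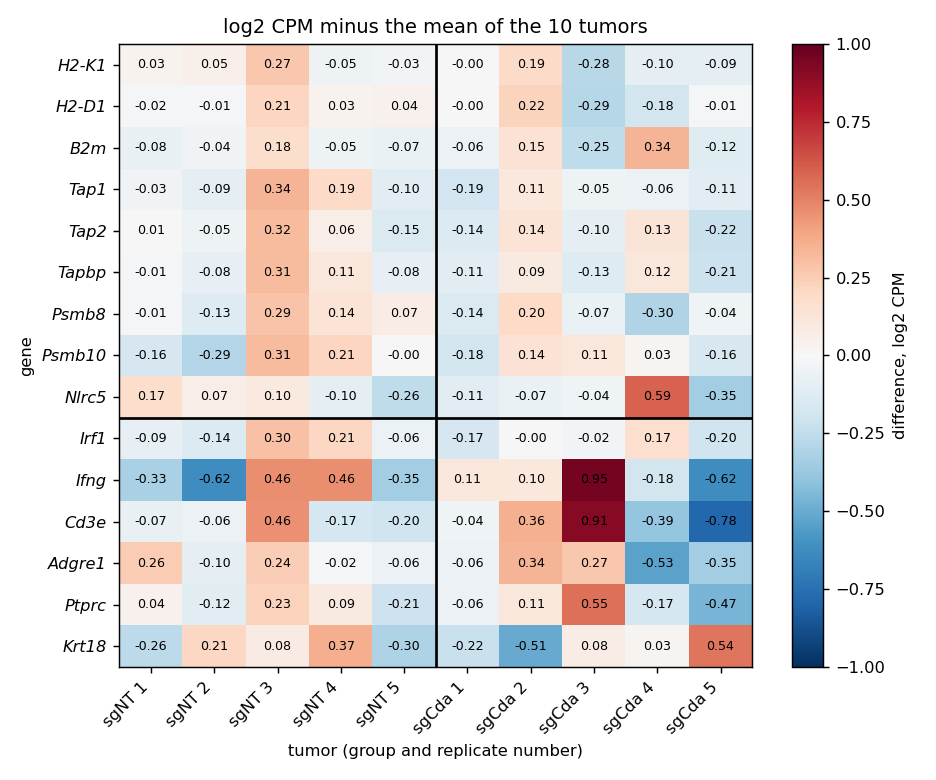
log2 CPM of each gene minus its mean over the 10 tumors, in color and printed in each cell, with the 9 members above the horizontal line and interferon, leukocyte and cancer cell genes below it, and sgNT tumors to the left of the vertical line. The sgNT 3 column is positive for all 9 members, sgCda 1 and sgCda 5 are at or below 0 for all 9, and Nlrc5 reaches 0.59 in sgCda 4.

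Pairs of members were then correlated across the 10 tumors, with p values from 100000 permutations. Pearson's r ran from -0.42 to 0.975 over the 36 pairs, with a median of 0.568, and 7 pairs had an adjusted p under 0.05 (1 pair by Spearman's rho). Without the 2 tumors farthest from the median of the gene on the x axis 2 pairs passed. The tightest pair was Tap2 and Tapbp, with r = 0.975 (permutation p = 2e-05, adjusted p = 0.00072), rho = 0.879 (permutation p = 0.00138, adjusted p = 0.0497) and r = 0.932 without sgNT 3 and sgCda 5. The heavy chains followed with r = 0.921 (permutation p = 0.00076, adjusted p = 0.0102), rho = 0.721 (permutation p = 0.0227, adjusted p = 0.102) and r = 0.810 without sgNT 3 and sgCda 3. Without these tumors the adjusted permutation p of the heavy chains was 0.219.

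Tap1 took part in 4 of the 7 pairs, with r = 0.871 (Tapbp), 0.843 (Tap2), 0.837 (Psmb10) and 0.782 (Psmb8), and none of the 4 passed without sgNT 3 and sgNT 4, where r was 0.563 to 0.739. The remaining pair was H2-D1 and Psmb8, with r = 0.776 and r = 0.921 without sgCda 2 and sgCda 3. The count of pairs depended on single tumors, with 1 pair passing without sgNT 3 and 14 without sgCda 4. Nlrc5 passed with 0 of 8 partners, and its r ran from -0.42 with Psmb8 to 0.684 with B2m. Within a group the 5 tumors are too few for a correlation, and with deviations from the group means 7 pairs passed.

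Irf1 encodes an interferon-induced factor that acts on class I, TAP and immunoproteasome promoters. It was at 337 to 456 CPM in sgNT and 324 to 417 CPM in sgCda tumors. In a family of 54 relations between the 9 members and 6 other genes, 4 had an adjusted p under 0.05, each of them with Irf1. Tapbp had r = 0.912 (permutation p = 0.00013, adjusted p = 0.00702), rho = 0.855 (permutation p = 0.00262, adjusted p = 0.0662) and r = 0.817 without sgNT 3 and sgNT 4. Psmb10 (r = 0.859), Tap2 (r = 0.853) and Tap1 (r = 0.840) were the others, with rho of 0.879, 0.818 and 0.842. By rho, 0 of the 54 passed. Without sgNT 3 and sgNT 4, r was 0.771 for Tap2, 0.684 for Psmb10 and 0.487 for Tap1, and none of the 4 passed over the remaining 8 tumors. With deviations from the group means 2 passed (Tapbp and Psmb10). H2-K1 (r = 0.288), H2-D1 (r = 0.212) and Psmb8 (r = 0.419) did not pass.

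Ifng, the gene of interferon-gamma, was low, at 5.65 to 12.0 CPM in sgNT and 5.66 to 17.0 CPM in sgCda tumors. None of the 9 members passed with it, and the highest r was 0.738 for Psmb10 (adjusted permutation p = 0.166). Cd3e (T cells), Adgre1 (macrophages), Ptprc (all leukocytes) and Krt18 (epithelial cancer cells) also passed with 0 of 9 members each. Without sgCda 3 and sgCda 5, Cd3e and H2-K1 had r = 0.985 (adjusted permutation p = 0.0178), against r = 0.081 with all 10 tumors. With Krt18, r was between -0.35 and 0.086. The summed macrophage markers ran from 4482 to 6969 CPM in sgNT and from 4136 to 7441 CPM in sgCda tumors, with the lowest sum in sgCda 4 and the highest in sgCda 2.

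**Figure D5:**
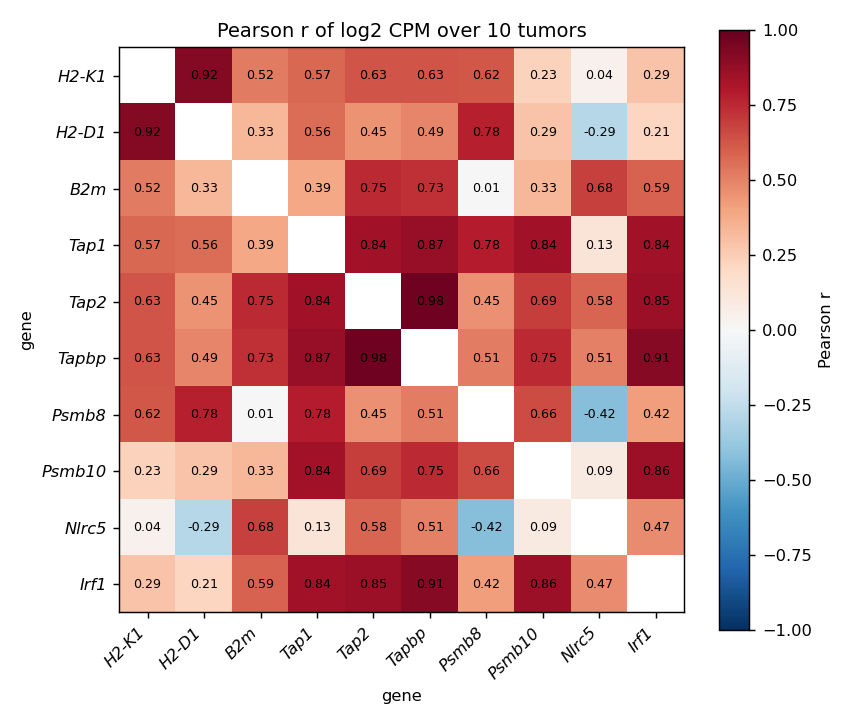
Pearson's r of log2 CPM over the 10 tumors between the 9 members and Irf1, in color and printed in each cell. Tap2 with Tapbp has the highest value (0.975), followed by H2-K1 with H2-D1 (0.921) and Tapbp with Irf1 (0.912), and Nlrc5 reaches -0.42 with Psmb8 and -0.29 with H2-D1.

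For the rest of the pathway, lists of genes were read in the same way. None of the genes named in the following sentences differed at an edgeR adjusted p under 0.05, where the smallest over all genes was 0.9996. Of the 16 other class I heavy chains, 15 were tested (H2-T3 had 27 counts in all and failed the filter), with 9 below 0 and a median log2 fold change of -0.080. H2-M2, a nonclassical chain, had the smallest p of these (0.67, SE 0.37, at 4.09 and 6.53 CPM), followed by H2-T22 (-0.13, SE 0.097) and H2-Q10 (0.49, SE 0.36). H2-T22 shares 44.7% of its 50-base stretches with other genes, so its counts are uncertain. Among the 6 loading and trimming partners, 5 were below 0. Lnpep, an aminopeptidase of the cross-presentation route, was at 158 ± 17.1 and 138 ± 16.8 CPM (log2 fold change -0.20, SE 0.099). Erap1, which trims peptides in the endoplasmic reticulum, was at -0.088 (SE 0.065), and Tapbpl, the tapasin-related peptide editor, at -0.10 (SE 0.10).

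The constitutive catalytic subunits lay close to 0, with log2 fold changes of -0.0022 (Psmb5), -0.0016 (Psmb6) and 0.013 (Psmb7). Their 95% intervals were -0.33 to 0.33, -0.26 to 0.25 and -0.18 to 0.20, and these intervals contained the differences of Psmb8 and Psmb10. The 12 other core and assembly genes had a median of 0.017 and 8 above 0, led by Psma4 (0.080, SE 0.056), Psma3 (0.049, SE 0.059) and the assembly factor Pomp (0.070, SE 0.086). Of the 4 activator genes 3 were below 0, with Psme2, an interferon-induced activator subunit, at -0.093 (SE 0.11), Psme3 at -0.027 (SE 0.084) and Psme1 at 0.018 (SE 0.096).

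Among 8 promoter factors, Ciita had an unadjusted edgeR p of 0.0120, the only one of the listed pathway genes under 0.05. Of all genes tested, 382 (2.5%) had such a p, so 1 among all these lists is not read as a result about the pathway. Ciita is the class II counterpart of Nlrc5. It was at 198, 199, 226, 175 and 174 CPM in sgNT 1 to 5 and at 153, 199, 136, 126 and 124 CPM in sgCda 1 to 5. The sgCda 2 value lay inside the sgNT range and the other 4 lay below it. The log2 fold change was -0.40 (SE 0.13, interval -0.69 to -0.11), and it did not pass the adjustment. Nfyc (0.026, SE 0.052) and Rfxap (0.030, SE 0.067), parts of the complexes to which NLRC5 and CIITA bind, came next.

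Of the 12 genes that carry the interferon signal to class I, 8 were below 0. Jak2, a kinase of the interferon-gamma receptor, had a log2 fold change of -0.10 (SE 0.075), and Ifnar1, a chain of the type I interferon receptor, one of -0.077 (SE 0.061). Of 10 GTPase and chemokine genes induced by interferon-gamma, 9 were tested (Gbp5 matched no entry), and 8 of them were below 0 with a median of -0.11. The smallest p values were those of Gbp3 (-0.19, SE 0.15), Igtp (-0.16, SE 0.15) and Cxcl10 (-0.29, SE 0.28). The log2 fold changes ran from -0.17 to 0.18 in the signal list and from -0.29 to 0.014 in the GTPase and chemokine list. Those of the members ran from -0.14 to 0.037, a narrower range. In these lists 0 of 12 and 0 of 9 tested genes passed before adjustment.

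The genes most alike in pattern were taken as those with the highest median r of log2 CPM to the 9 members over the 10 tumors, given as a description without a test. H2-T23, a nonclassical class I heavy chain, came first with a median r of 0.812 (0.086 to 0.894 over the members). It shares 28.8% of its 50-base stretches with other genes, so its counts are uncertain. Next came an unnamed gene (ENSMUSG00000079674, 0.787), Ube2l6 (0.768), Il18bp (0.763), Tor3a (0.750), Tapbpl (0.725), Pla2g16 (0.724), Isg20 (0.723), H2-T22 (0.723) and Slamf8 (0.722). Of these 10, H2-T23, H2-T22 and Tapbpl belong to the class I lists above. The highest level of H2-T23 was in sgNT 3, at 401 CPM, as for 6 of the members. All 10 had a log2 fold change below 0, from -0.20 (Tor3a) to -0.085 (Il18bp), and an edgeR adjusted p of 0.9996. They were picked by likeness to the members over the same tumors, group difference included. Their shared direction with most members therefore follows in part from the choice.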

How the data were processed

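RNA of 10 whole s.c. Panc02 tumors was measured. The authors extracted it with TRIzol, selected polyadenylated RNA, built stranded libraries and read the leading bases on a HiSeq instrument. Per the labels and the study's methods, adapters were removed, TopHat and Bowtie2 aligned the reads to GRCm38 (mm10) and HTSeq (07.2 in the submitters' processing notes) counted reads per Ensembl gene. The annotation release and strand setting are not given in the sources used here. The deposited values are raw counts, whole numbers without normalization, in 1 column per tumor. The authors' counting set aside reads with several alignments (0.684 to 0.789 per assigned count) and reads over several genes, which lowers genes with near-identical copies. The 5 HTSeq summary lines were kept out of totals and tests. Reads outside genes were 10.3% to 18.4% of uniquely aligned reads.

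The sample titles gave each tumor its group and replicate number. The labels name 5 tumors per group, and no batch, so p values measure the spread between these tumors. Genes were filtered with filterByExpr (minimum count 10, minimum total 15) and scaled by TMM, and the sgCda effect was tested in edgeR with quasi-likelihood fits (version 4.0.16 under R 4.3.3) with Benjamini-Hochberg adjustment over all 15299 genes tested. CPM is relative to the TMM-scaled library, and log2 CPM used a prior count of 2. Ratios were compared by exact permutation, correlations by 100000 permutations, with adjustment within each family. Alternatives were DESeq2's size factors and Wald test (DESeq2 1.42.0), library totals, other filters, limma-voom with and without sample quality weights (limma 3.58.1), a block for the replicate number, a fit without the 20 most abundant genes, removal of each tumor, and joint removal of skeletal muscle genes, sgCda 3 and sgCda 4. The edgeR step was tested on simulated data. Positions came from GENCODE M21 and promoters from RefSeq GRCm38.p6.

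With 28051907 to 39484964 assigned counts, 3 counts equal 0.0760 to 0.107 CPM, and members had at least 4077 counts per tumor, so the spread between tumors and not counting error limits their precision. The members and lists were chosen with earlier results of these data known. Genes named were the members, Cda, the constitutive subunits, up to 3 genes of smallest p in each list, the genes used in correlations, and the 10 genes most alike in pattern. Some further cell type markers were named for their values in single tumors or their level. Single genes that these rules would also name are not reported here.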

Additional observations from a re-analysis of the deposited data

Results flagged for a closer look

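Of 30 groups of 5 values (members and ratios in each group), 4 had an extreme value by Dixon's test, and chance gives about 1 in 20, or 1.5. In sgNT 3, H2-D1 was at 11.724 log2 CPM, above the 11.496 to 11.554 of the other sgNT tumors, and B2m was at 12.004 log2 CPM, above 11.747 to 11.788. In sgCda 4, the log2 ratio of H2-K1 to B2m was -0.55443, below the -0.1424 to -0.059372 of the other sgCda tumors, and the log2 ratio of H2-D1 to B2m was -0.8331, below -0.34589 to -0.2029. The ratios of sgCda 4 share B2m as denominator and are not independent of each other. In sgNT 3 the T and NK cell markers summed to 462 CPM, the highest of the sgNT group, and the macrophage markers to 6969 CPM, also its highest. Their part in the high H2-D1 and B2m was not tested.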

How the results depend on the processing

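Under every alternative run, 0 genes and 0 members passed an adjusted p of 0.05, and 0 members had an unadjusted p under 0.05. Members below 0 numbered 5 to 9, and the count of 5 is of the 6 members left when the 20 most abundant genes, among them H2-K1, H2-D1 and B2m, were removed. Genes with an unadjusted p under 0.05 numbered 382, but 830 with a filter of 1 count (26302 genes tested) and 719 with limma-voom and sample quality weights. Leaving out each tumor in turn gave 280 to 747, with 747 without sgCda 3.

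With quality weights the log2 fold change was -0.012 for B2m and -0.13 for Nlrc5. Without skeletal muscle genes, sgCda 3 and sgCda 4 it was -0.00081 for B2m, 0.017 for H2-D1 and -0.18 for Nlrc5. Leaving out each tumor in turn, it ran from -0.055 to 0.095 for B2m (below 0 without sgCda 4), from -0.14 to 0.12 for Nlrc5 (below 0 without sgNT 5 and without sgCda 4) and from -0.11 to 0.043 for Psmb10 (above 0 without sgNT 3, sgNT 4 or sgCda 1). The H2-K1/H2-D1 difference then ran from -0.026 to 0.013 and the Psmb10/Psmb7 difference from -0.115 to 0.037. The cause was not tested. The other members and ratios kept their direction under the tumor removals, but not their size. Without sgNT 3 the log2 fold change was -0.0012 for Tap2, -0.029 for Tapbp, -0.052 for Tap1, -0.048 for H2-K1, -0.055 for H2-D1 and -0.081 for Psmb8. The lowest and highest values over all removals were -0.170 and -0.048 for H2-K1 and -0.169 and -0.042 for H2-D1 (lowest without sgCda 2 for both, highest without sgCda 3 for H2-D1), -0.124 and -0.0012 for Tap2, -0.209 and -0.081 for Psmb8, -0.192 and -0.045 for Psmb8/Psmb5 (highest without sgCda 3) and -0.077 and -0.0017 for Tap1/Tap2 (highest without sgCda 4).

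Correlated pairs of members numbered 7, or 2 without the 2 farthest tumors and 1 to 14 leaving out each tumor in turn, an alternative chosen after seeing the data (1 without sgNT 3, 4 without sgCda 2, 14 without sgCda 4). Relations with other genes numbered 4, or 1 without the 2 farthest tumors, 2 with deviations from the group means, and 0 to 4 leaving out each tumor (0 without sgNT 3 and without sgCda 5). The 1 relation without the 2 farthest tumors was Cd3e with H2-K1, which is not among the 4.

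Replicate numbers recur in both groups but belong to different mice, and deviations of same-numbered tumors correlated at -0.028, -0.024, 0.331, -0.427 and 0.343. With signs this mixed the numbers were not used as pairs in the main fit. Whether same-numbered tumors were handled together is not given and was not tested. With the replicate number as a block, 325 genes had an unadjusted p under 0.05, 0 passed the adjustment, 7 members were below 0, and H2-K1/B2m differed by -0.13 (exact sign-flip p = 0.0625, the smallest that 5 pairs allow). The ratios Psmb9/Psmb6 and Psmb9/Tap1 were not run, since the identifier of Psmb9 matched no entry of the count table. Depth did not limit the members, which had at least 4077 counts in every tumor, whereas the number of tumors per group (5) set the width of their intervals.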

Other observations

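The cell types of a tumor use class I genes to different degrees, and their markers are given here for the same tumors. Of 9 T and NK cell markers, 8 had a log2 fold change above 0 (47.1% of all genes were below 0), with 0 under an unadjusted edgeR p of 0.05. The smallest p values were those of Cd4 (0.11, SE 0.13), Trac (0.12, SE 0.25) and Klrd1 (0.15, SE 0.33). The sums overlapped, at 285 to 462 CPM in sgNT and 206 to 708 CPM in sgCda tumors. The 708 CPM was in sgCda 3, and the other sgCda tumors lay at 206 to 395 CPM. Cd8a was at 214 CPM in sgCda 3, at 54.9 to 112 CPM in the other sgCda tumors and at 78.5 to 135 CPM in sgNT tumors. Cd3d, Cd3e, Cd8b1, Nkg7, Klrd1 and Trac were, like Cd8a, at their highest of the 10 tumors in sgCda 3. For each of these 3 of 5 sgCda tumors lay below the sgNT mean, except for Trac with 2 of 5. Cd4 was highest in sgCda 1, also with 2 of 5 below. The signs without sgCda 3 were not tested. Of 8 macrophage markers 3 were above 0, with Mrc1, the mannose receptor CD206, at 0.25 (SE 0.17), Adgre1 at -0.099 (SE 0.16) and Csf1r at -0.058 (SE 0.12). Of 7 dendritic cell markers 6 were above 0, with Ccr7 at 0.25 (SE 0.24), Itgax at 0.13 (SE 0.16) and Clec9a at 0.22 (SE 0.34), and the summed level ran from 152 to 233 CPM in sgNT and from 134 to 303 CPM in sgCda tumors. Ptprc was at 0.019 (SE 0.16).

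B cell markers were low, and of the 3 tested Cd79a had an unadjusted edgeR p of 0.0475 at 0.828 ± 0.156 and 1.18 ± 0.279 CPM, while Cd79b was at 0.085 (SE 0.22) and Ms4a1 at 0.023 (SE 0.40). Of 7 epithelial markers 4 were above 0 and 3 below, among the latter the plentiful Krt8 (-0.076, SE 0.17) and Krt18 (-0.016, SE 0.19). Epcam had an unadjusted edgeR p of 0.0305 at 1.03 ± 0.138 and 1.77 ± 0.959 CPM, followed by Msln (0.36, SE 0.19) and Krt7 (0.92, SE 0.60). Its highest value, 3.43 CPM, was in sgCda 2 for Epcam, and the other sgCda tumors lay at 1.01 to 1.71 CPM. Of all genes tested, 2.5% had an unadjusted edgeR p under 0.05, the threshold that Cd79a and Epcam reached. Of 6 fibroblast markers 5 and of 5 endothelial markers 4 were below 0, led by Pdgfrb (-0.11, SE 0.20), Pdgfra (-0.14, SE 0.36), Col3a1 (-0.086, SE 0.44), Cdh5 (-0.27, SE 0.17), Pecam1 (-0.25, SE 0.19) and Tie1 (-0.17, SE 0.19). The 6 skeletal muscle markers were all above 0, with Myh1 at 1.35 (SE 1.13), Tnnt3 at 1.86 (SE 1.58) and Mylpf at 1.74 (SE 1.48), and their 95% intervals included 0. None passed the edgeR adjustment (adjusted p = 0.9996).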
